A study of Aspergillus nidulans with 7 samples.

Results

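The last 18 h of conidiation in Aspergillus nidulans, a filamentous fungus that forms its asexual spores (conidia) on stalked conidiophores, were described by setting the 48 h library against the 30 h library. These are 2 of the 7 libraries of the series, 1 for each time from 0 h through 6, 12, 18, 24 and 30 h up to 48 h. Both came from FGSC A4, which the labels give as wild type: mycelium from an aerated submerged culture was collected on filter paper, kept moist with minimal medium, exposed to air and constant light, and harvested 48 h or 30 h later, when the labels place the filters in the stage of mature conidiophores with chains of spores. Each library held RNA of a whole filter, with feeding hyphae, stalks and spores together, so a change in the share of a cell type and a change in RNA per cell cannot be told apart. Filters were taken in duplicate by the labels' account, but the table has 1 column per time and whether filters were pooled is not stated, so the differences have no replicate check and no p-value, and the intervals cover counting error only.

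Conidiophore formation is driven by a cascade of transcription factors in which brlA acts first, abaA follows in the phialides that bud off spores, and wetA acts in the spores as their walls mature. The young spore is then coated with hydrophobin rodlets and pigment, and it fills with protectants such as trehalose before it becomes dormant. The hyphae beneath may meanwhile run short of nutrients, which was not measured here. Fungi in that state are known to secrete proteases and to take up the peptides released.

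The 48 h library held 9018102 counts over 10185 genes and the 30 h library 9899347 counts over 10279 genes. Levels are CPM, counts scaled to a common library total, after TMM scaling, which sets the bulk of genes level between libraries. On that scale 1 count was 0.0795 CPM at 48 h, against 0.0771 CPM at 30 h, and 10 CPM stood for 126 counts at 48 h and 130 at 30 h, with exact 95% limits of 8.34 to 11.9 CPM at 48 h and 8.37 to 11.9 CPM at 30 h. A gene is said to have risen or fallen where CPM plus 0.5 differed at least 4-fold and the higher library had at least 10 CPM. Fold values in the text are plain ratios of CPM, 48 h over 30 h, with their 95% counting interval in brackets, and genes under the 4-fold rule are called higher or lower. A gene x-fold lower is given by the inverse ratio, 30 h over 48 h. Reads copied by PCR are not independent molecules, which these intervals do not cover.

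Of 7577 genes with at least 10 CPM in at least 1 of these 2 libraries, 115 rose (1.52%) and 151 fell (1.99%) by 48 h. At a 2-fold threshold 558 were higher (7.36%) and 773 lower (10.2%). The genes that rose held 2.93% of all counts at 48 h, against 0.479% at 30 h. The genes that fell held 1.05% at 48 h, against 4.95% at 30 h. Among the 1295 genes with at least 100 CPM in both libraries the log2 fold had an SD of 0.68 and a median of 0.018. For the preceding step, 30 h against 24 h, which shares the 30 h library and spans 6 h, the SD was 0.42 over 1517 genes, and 23 of 7433 genes rose (0.309%) and 42 fell (0.565%), with 183 at least 2-fold higher (2.46%) and 207 lower (2.78%). For 24 h against 18 h, also 6 h apart, 16 of 7322 genes rose (0.219%) and 0 fell, with 174 at least 2-fold higher (2.38%) and 134 lower (1.83%). No gene counted in only 1 of the 2 libraries was abundant: of the 75 genes counted at 48 h and not at 30 h the highest had 15 counts, and of the 169 counted at 30 h and not at 48 h the highest had 18.

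**Figure D1:**
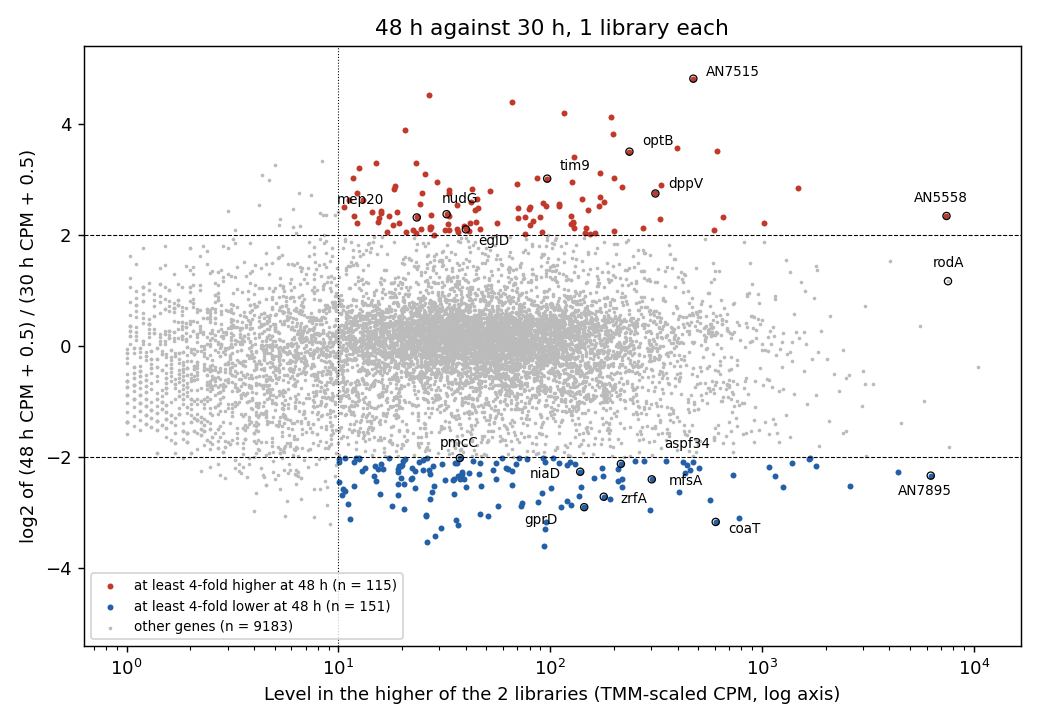
Each point is 1 gene with at least 1 CPM in either library; the x axis is its level in the higher library (TMM-scaled CPM, log axis) and the y axis its log2 fold, 48 h over 30 h. Dashed lines mark 4-fold and the dotted line 10 CPM, with 115 genes above and 151 below.

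Genes of the spore wall and of spore and stalk pigment were higher at 48 h, by 1.63-fold to 3.20-fold. All 10 listed genes of spore wall proteins and pigment were higher, 9 of them at least 2-fold and 0 at least 4-fold, with a median log2 fold of 1.31, against 0.038 over the 9449 genes with at least 1 CPM. Of those 9449 genes 4965 were higher, and of the 7577 with at least 10 CPM 7.36% were at least 2-fold higher. rodA, the hydrophobin of the rodlet layer (AN8803, contig 158, 210847 to 211432), had 7561 CPM at 48 h, against 3365 CPM at 30 h, a ratio of 2.25 (2.22 to 2.27). It was the most abundant transcript per length at 48 h among genes of at least 300 bases, with a deposited RPKM of 22248, against 9305 at 30 h. dewA, a second wall hydrophobin, had 434 CPM at 48 h, against 178 CPM at 30 h, 2.43-fold higher (2.32 to 2.55). ccpA, known in Aspergillus fumigatus as a conidial wall protein, had 588 CPM at 48 h, against 209 CPM at 30 h and was 2.82-fold higher (2.70 to 2.95). CweA, another gene of the list, was 2.73-fold higher (2.66 to 2.80), with 1800 CPM at 48 h, against 660 CPM at 30 h. cspA, named after a cell surface protein, was 2.78-fold higher (2.58 to 2.99).

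The pigment genes lay in the same range. pksP, the polyketide synthase that makes the yellow precursor of the spore pigment, had 189.6 CPM at 48 h, against 84.7 CPM at 30 h, 2.24-fold higher (2.08 to 2.41). yA, the laccase that turns that precursor green, was 2.33-fold higher (2.19 to 2.47), with 292 CPM at 48 h, against 126 CPM at 30 h. ayg1, which acts on the polyketide in Aspergillus fumigatus, had the largest ratio of the list, 3.20 (2.73 to 3.78), at 49.1 CPM at 48 h, against 15.3 CPM at 30 h. In the stalk pigment pathway ivoA was 2.56-fold higher (2.40 to 2.72), while ivoB, its phenol oxidase, was 1.63-fold higher (1.54 to 1.72) and the single member under 2-fold. The intervals of ivoA and ivoB do not overlap. rodA and dewA are short genes, of 474 and 408 bases, and short genes as a class were higher at 48 h, as given further on. Less the median of genes of like length, the log2 fold was 0.85 for rodA and 0.96 for dewA, against 1.17 and 1.28 as measured.

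**Figure D2:**
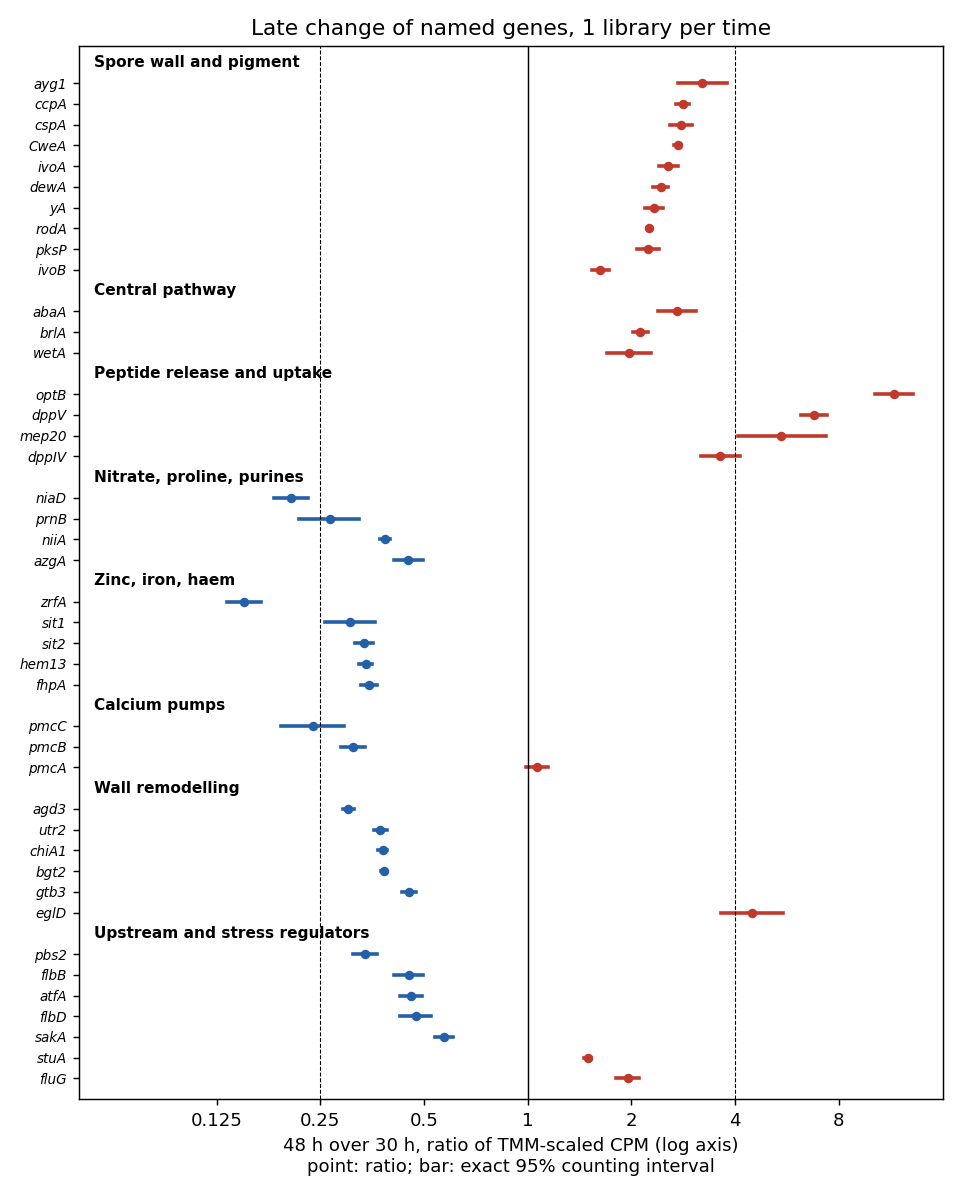
Ratio of CPM, 48 h over 30 h, on a log axis for genes grouped by role; points are ratios, bars exact 95% counting intervals, red higher and blue lower at 48 h, and dashed lines mark 4-fold. Spore wall and pigment genes sit between 1.63 and 3.20, while optB stands at 11.6 and zrfA at 0.15. Many of the genes were chosen after their values were seen, and groups are not shown in full. eglD stands in its group by its symbol alone. Of the listed nitrogen genes, nirA, areA, prnC and gmdA were higher and are not shown. Also higher and not shown are 2 of 5 listed metal genes, among them zrfC, and 5 of 13 iron genes, among them mirB.

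The 3 central regulators were each higher at 48 h, by 1.97-fold to 2.71-fold. abaA (AN0422) had 72.0 CPM at 48 h, against 26.6 CPM at 30 h, 2.71-fold higher (2.39 to 3.08). brlA (AN0973) had 347 CPM at 48 h, against 163 CPM at 30 h, 2.13-fold higher (2.02 to 2.24). wetA (AN1937) had 44.3 CPM at 48 h, against 22.5 CPM at 30 h, 1.97-fold higher (1.70 to 2.27). The interval of abaA lies above those of the other two. Regulators that act upstream of brlA differed in direction. flbB, a leucine zipper activator of brlA, had 47.0 CPM at 48 h, against 104 CPM at 30 h, 2.21-fold lower (2.01 to 2.44). flbD, a Myb factor that works with flbB, was 2.11-fold lower (1.91 to 2.34), and flbA, a regulator of G protein signalling, 1.81 times lower, at 74.1 CPM at 48 h, against 134 CPM at 30 h. fluG, needed to start the programme, was 1.95-fold higher (1.81 to 2.11). Of the 14 listed modifiers and activators 1 was at least 2-fold higher, tmpL, and 3 were at least 2-fold lower, flbB, flbD and rgsA, with a median of -0.17. These are shares of 7.14% and 21.4%, against 7.36% and 10.2% of all 7577 genes with at least 10 CPM.

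vosA and velB, velvet proteins that act together in spore maturation and trehalose build-up, were both within 2-fold. vosA had 54.8 CPM at 48 h, against 46.6 CPM at 30 h, a ratio of 1.18 (1.05 to 1.31), and velB had 30.8 CPM at 48 h, against 40.3 CPM at 30 h, a ratio of 0.77 (0.67 to 0.87). catA, known as the catalase of A. nidulans spores, had 140 counts at 48 h and 149 at 30 h, a ratio of 0.97 (0.76 to 1.23). orlA, which acts in trehalose synthesis, stood at 90.9 CPM at 48 h, against 97.3 CPM at 30 h, and the trehalase gene treA at 52.2 CPM at 48 h, against 61.0 CPM at 30 h. None of the 5 matched genes of trehalose, antioxidant and stress tolerance was 2-fold higher or lower. Of all 7577 genes 7.36% were at least 2-fold higher and 10.2% lower, so 0 of 5 is near those shares. The list median was -0.098. Against 24 h in place of 30 h that median was -0.94. sod1, a superoxide dismutase gene outside that list, was 2.45-fold higher (2.27 to 2.63). Of the markers fixed for spores, rodA, dewA, ccpA, pksP and yA were at least 2-fold higher and wetA 1.97-fold, while vosA stood at 1.18. All were detected in both libraries, as were the phialide marker abaA and the conidiophore markers brlA and ivoB. Of 6 markers listed for sexual structures 2 were matched by symbol, and nosA, mutA, matA and lsdA were not. ppgA, a pheromone precursor gene, had 7.55 CPM at 48 h, against 7.09 CPM at 30 h, and steA 273 CPM at 48 h, against 288 CPM at 30 h. Of the 8 listed repressors of conidiation, velvet and light genes, 7 had at least 1 CPM and 6 at least 10 CPM. None was 2-fold higher or lower, which for 6 genes is also near the shares over all genes. laeA, a regulator of secondary metabolism, had 58.4 CPM at 48 h, against 38.8 CPM at 30 h, and veA 136 CPM at 48 h, against 122 CPM at 30 h. stuA, a developmental factor, was 1.49-fold higher (1.46 to 1.53) and medA 1.19-fold lower (1.13 to 1.26).

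Of the 6 risen genes that carry a symbol, optB had the largest ratio. optB, an oligopeptide transporter gene (AN7597, contig 126, 592294 to 594678), had 237 CPM at 48 h, against 20.5 CPM at 30 h, 11.6-fold higher (10.2 to 13.1). Its level at 24 h was 6.78 CPM, so the 30 h value was already 3.02 times that of 24 h. dppV, a secreted dipeptidyl peptidase gene (AN2572), rose 6.77-fold (6.21 to 7.39), to 314 CPM at 48 h, against 46.4 CPM at 30 h. mep20, a metalloprotease gene (AN7962), rose 5.43-fold (4.07 to 7.37), with 23.5 CPM at 48 h, against 4.32 CPM at 30 h. dppIV, another dipeptidyl peptidase gene, stood just under the rule at 3.63-fold (3.18 to 4.14). These 4 genes are set together after their values were seen, and no list of peptide genes was counted. Another riser was eglD (AN1602), with 40.0 CPM at 48 h, against 8.94 CPM at 30 h, 4.47-fold higher (3.65 to 5.52). With a pseudocount of 2 CPM its log2 fold was 1.94, under the 4-fold rule. Its symbol alone placed it in the glucan list, and a role in the wall was not looked at here.

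The remaining risen genes with a symbol, tim9 and nudG, were lower at 30 h than at 24 h. tim9, a small carrier of mitochondrial protein import (AN7649, 273 bases), had 96.8 CPM at 48 h, against 11.6 CPM at 30 h, 8.38-fold higher, but 62.1 CPM at 24 h, so that 48 h was 1.56 times 24 h. nudG, a dynein light chain gene (AN0420, 285 bases), had 32.4 CPM at 48 h, against 5.86 CPM at 30 h, 5.54-fold higher, and 21.5 CPM at 24 h, a ratio of 1.51 for 48 h over 24 h. rps21, a small ribosomal subunit gene of 267 bases, was 2.98-fold higher than at 30 h and 2.04-fold higher than at 24 h. Of the 115 genes that rose, 7 were within 2-fold of their 24 h level, and those 7 were 201 to 430 bases long.

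**Figure D3:**
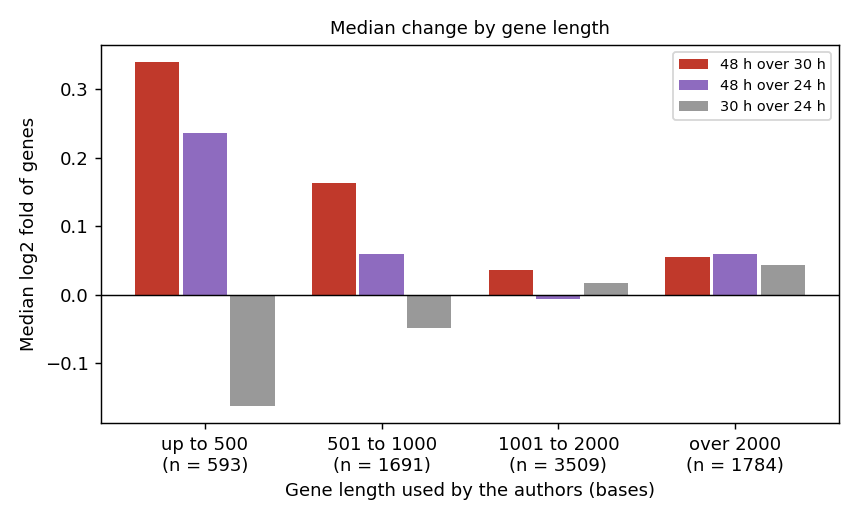
Median log2 fold of genes with at least 10 CPM in the higher of the 30 and 48 h libraries, by the gene length the authors used, for 48 h over 30 h (red), 48 h over 24 h (purple) and 30 h over 24 h (grey). In the shortest class the medians were 0.34, 0.24 and -0.16.

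Gene length moved with these results. The 593 genes of up to 500 bases had a median log2 fold of 0.34, against 0.16 for those over 500 and up to 1000 bases, 0.037 for those over 1000 and up to 2000 bases and 0.055 for longer genes. The shortest class had 26 of the 115 rises and 16 of the 151 falls. Of its genes 4.38% rose and 2.70% fell, against 1.52% and 1.99% of all 7577 genes. For 30 h over 24 h the median of the shortest class was -0.16. Whether the length of transcripts or library preparation has a part in the folds of short genes was not tested. With the median of genes of like length taken off, a setting added after the values were seen, 95 genes rose and 182 fell.

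The falls with a symbol were led by coaT, a CoA transferase gene (AN1547, contig 25, 52665 to 54340). It had 67.1 CPM at 48 h, against 605 CPM at 30 h, 9.02-fold lower (8.40 to 9.69), after 262 to 649 CPM in the libraries from 0 to 24 h. gprD, a G protein-coupled receptor gene, fell 7.62-fold (6.66 to 8.76), to 19.0 CPM at 48 h, against 145 CPM at 30 h. mfsA, a transporter of the major facilitator family, fell 5.30-fold (4.90 to 5.75), with 56.9 CPM at 48 h, against 302 CPM at 30 h, and its log2 fold against 24 h was -1.94. aspf34, named after a wall protein known as an allergen in A. fumigatus, fell 4.38-fold (4.01 to 4.78), with 49.3 CPM at 48 h, against 216 CPM at 30 h. The 7 named falls were completed by zrfA, niaD and pmcC, described with their groups. coaT, gprD and mfsA had stood level or higher from 24 to 30 h, with ratios of 1.17, 1.18 and 1.37, whereas zrfA and aspf34 had their highest levels at 0 h, 4577 and 1290 CPM.

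Nitrogen use had a median of -0.52 over 12 genes, the lowest of the 28 lists at this setting. With genes of like length taken off histones were lower, at -0.58 over 2 genes against -0.56, and against 24 h trehalose and heat shock were lower, at -0.94 and -0.70 against -0.58. Of the 12 genes 4 were at least 2-fold lower (33.3%) and 0 at least 2-fold higher, against 10.2% and 7.36% of all 7577 genes. niaD, the nitrate reductase gene, had 28.5 CPM at 48 h, against 139 CPM at 30 h and fell 4.86-fold (4.34 to 5.46). niiA, the nitrite reductase gene, its neighbour on contig 15, had 399 CPM at 48 h, against 1034 CPM at 30 h and was 2.59-fold lower (2.51 to 2.68). prnB, the proline permease gene, was 3.76-fold lower (3.08 to 4.60), at 10.1 CPM at 48 h, against 37.9 CPM at 30 h, and azgA, a purine transporter gene, 2.22-fold lower (2.02 to 2.44). nirA, the activator of niaD and niiA, had 191 CPM at 48 h, against 156 CPM at 30 h, and areA, the general nitrogen regulator, 451 CPM at 48 h, against 346 CPM at 30 h. The nitrate transporter gene crnA stood at 21.5 CPM at 48 h, against 22.0 CPM at 30 h. gmdA, an amidase gene, was 1.74-fold higher (1.61 to 1.89). glnA, the glutamine synthetase gene, had 1159 CPM at 48 h, against 1583 CPM at 30 h. Of the 12 genes 8 were lower and 4 higher, the 4 being nirA, areA, prnC and gmdA. Over all 9449 genes with at least 1 CPM, 4484 were lower and 4965 higher.

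Metal and haem genes were mixed. zrfA, a zinc transporter gene (AN8337), had 26.95 CPM at 48 h, against 179 CPM at 30 h and fell 6.65-fold (5.93 to 7.47). Its paralog zrfC was 2.26-fold higher (1.87 to 2.74), at 28.2 CPM at 48 h, against 12.5 CPM at 30 h, and zrfB stood at 292 CPM at 48 h, against 303 CPM at 30 h. The 5 listed metal and ion genes had a median of -0.055. Of 13 iron and siderophore genes 2 were at least 2-fold lower (15.4%, near the 10.2% of all genes): hem13, a haem synthesis gene, with 210.3 CPM at 48 h, against 620 CPM at 30 h, and fhpA, a flavohaemoglobin gene, with 156 CPM at 48 h, against 450 CPM at 30 h. mirB, a siderophore transporter gene, was 1.82-fold higher (1.73 to 1.92), at 343 CPM at 48 h, against 188 CPM at 30 h. sit1 and sit2, named after siderophore transporters and outside the list, were 3.27-fold and 2.99-fold lower. Of the 13 listed iron and siderophore genes 5 were higher and 8 lower, with a median of -0.22.

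Calcium pumps differed among themselves. pmcC fell 4.21-fold (3.42 to 5.21), to 8.90 CPM at 48 h, against 37.5 CPM at 30 h. It lay under the 4-fold rule when scaled by total counts alone, at a log2 fold of -1.94, and with a pseudocount of 2 CPM, at -1.86. pmcB was 3.21-fold lower (2.97 to 3.48), at 64.95 CPM at 48 h, against 209 CPM at 30 h, while pmcA stood at 115 CPM at 48 h, against 108 CPM at 30 h. cnaB, the calcineurin regulatory subunit gene, was 1.97-fold higher (1.77 to 2.20). The 7 listed calcium genes had a median of -0.37.

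Genes of wall polysaccharides were split. In the glucan list of 11 genes, eglD, matched by its symbol alone, rose. It was the only member at least 2-fold higher (9.09%, against 7.36% of all 7577 genes). The 2 genes agd3 and gtb3 were at least 2-fold lower (18.2%, against 10.2% of all 7577 genes). Of the 11, 5 were higher and 6 lower, with a median of -0.45. agd3, a deacetylase gene of exopolysaccharide synthesis in A. fumigatus, was 3.31-fold lower (3.19 to 3.44), with 277 CPM at 48 h, against 919 CPM at 30 h. gtb3, the glycosyltransferase gene next to it on contig 49, was 2.21-fold lower (2.11 to 2.31). The alpha-glucan synthase gene ags1 had 366 CPM at 48 h, against 713 CPM at 30 h, while its paralog ags2 had 147 CPM at 48 h, against 116 CPM at 30 h. Outside the list bgt2, a glucanosyltransferase gene, was 2.62-fold lower (2.58 to 2.66), at 1731 CPM at 48 h, against 4530 CPM at 30 h. chiA1, a chitinase gene, was 2.63-fold lower (2.55 to 2.72), and utr2, a transglycosidase gene, 2.68-fold lower (2.57 to 2.79). Of 7 chitin synthase genes 6 were lower and 0 by 2-fold, with the lowest ratio, 0.59, for chsA, at 56.0 CPM at 48 h, against 95.1 CPM at 30 h. Over all 9449 genes with at least 1 CPM, 4484 were lower.

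Among 13 stress and growth kinases and their factors 2 were at least 2-fold lower (15.4%, near the 10.2% of all genes) and 0 higher, with a median of -0.24. pbs2, the kinase above the osmotic stress kinase sakA, was 2.97-fold lower (2.74 to 3.22), at 63.7 CPM at 48 h, against 189 CPM at 30 h. atfA, a transcription factor that acts with sakA, was 2.18-fold lower (2.02 to 2.35), and sakA itself 1.75-fold lower (1.65 to 1.86), at 128 CPM at 48 h, against 224 CPM at 30 h. mpkC, the close relative of sakA, had 22.9 CPM at 48 h, against 35.4 CPM at 30 h. sskA and sskB, upstream parts of the same route, had ratios of 0.99 and 0.85.

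**Figure D4:**
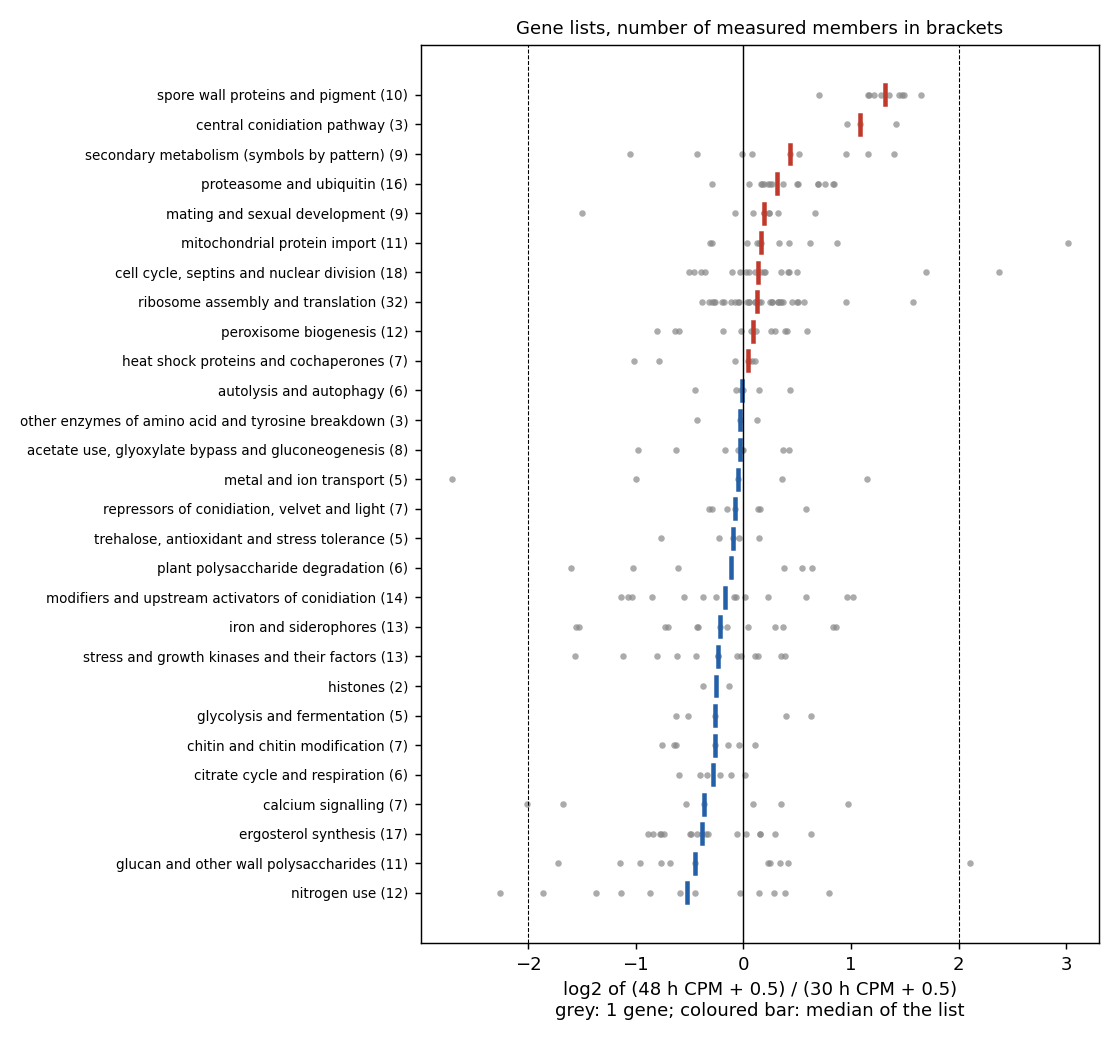
Log2 fold, 48 h over 30 h, of every measured member (grey points) of the 28 gene lists, with the list's median as a coloured bar and the number of members in brackets. Spore wall and pigment genes have the highest median, 1.31, and nitrogen use genes the lowest at this setting, -0.52.

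In most lists of primary metabolism and protein turnover no gene passed 2-fold. Of all 7577 genes with at least 10 CPM, 7.36% were at least 2-fold higher and 10.2% at least 2-fold lower. Over all 9449 genes with at least 1 CPM, 4965 were higher and 4484 lower. Of 17 genes listed for ergosterol synthesis 12 were lower, 0 by 2-fold, with a median of -0.38. That list also holds hmgA, which by that symbol is known in A. nidulans as a gene of phenylalanine breakdown. erg13 and erg27 were the lowest, 1.80-fold and 1.86-fold lower. The lists of glycolysis and fermentation, of citrate cycle and respiration, and of acetate use had 0 genes past 2-fold in either direction. They held 5, 6 and 8 genes, few enough that 0 is near the shares over all genes, with medians of -0.26, -0.28 and -0.032. The 5 were pgkA, pgmA, gpdA, creA and creB, and the 6 were acoA, sdh2, nde1, atp4, cox10 and cox15. Both lists therefore cover only a part of the pathway that they are named after. Against 24 h the median for acetate use was -0.45. gpdA, the glyceraldehyde phosphate dehydrogenase gene, had 1795 CPM at 48 h, against 2566 CPM at 30 h. cit1, a citrate synthase gene on the acetate list, came nearest to 2-fold, 1.98-fold lower (1.90 to 2.05). Of 16 proteasome and ubiquitin genes 15 were higher, 0 by 2-fold, with a median of 0.32. Against 24 h in place of 30 h that median was 0.053, and with genes of like length taken off it was 0.20. pup2, a proteasome core subunit gene of 741 bases, had 123, 79.4 and 143 CPM at 24, 30 and 48 h.

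The 32 genes of ribosome assembly and translation had a median of 0.12 with 1 gene, rps21, at least 2-fold higher (3.1%, against 7.36% of all 7577 genes). The mitochondrial import list had 1 rise of 11, tim9, and the list of cell cycle, septins and nuclear division had 1 of 18, nudG. Over all 7577 genes the share was 1.52%. At 2-fold the shares were 9.09% and 11.1%, against 7.36% of all 7577 genes. The cell cycle list then also held nudC, at 3.31-fold (2.87 to 3.82). Both tim9 and nudG are the short genes described above. Among 7 heat shock genes bipA, a chaperone of the secretory path, was 2.03-fold lower (1.96 to 2.10), and hsp70 stood at 1620 CPM at 48 h, against 1578 CPM at 30 h. The heat shock median was 0.039 against 30 h and -0.70 against 24 h. The lists of autophagy (6 genes), peroxisomes (12), mating (10), histones (2) and tyrosine breakdown (3) had 5, 12, 7, 2 and 3 genes with at least 10 CPM. Of these 0 passed 2-fold, against 7.36% higher and 10.2% lower among all 7577 genes. For the shorter lists 0 is near those shares. MAT2, a mating type gene, had 12 counts at 48 h and 47 at 30 h. Of 6 plant polysaccharide genes pmeA, a pectin methylesterase gene, and xlnD, a xylosidase gene, were 3.22-fold and 2.05-fold lower. That is 33.3% of the list, against 8.18% of all 9449 genes with at least 1 CPM. In the list of secondary metabolism, matched by the form of the symbol, fmaF and pksP were at least 2-fold higher and ace1 was lower, of 9 genes (22.2% and 11.1%, against 5.91% and 8.18% of those 9449 genes). Its median was 0.43 against 30 h and -0.035 against 24 h.

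The rule fixes much of where the called genes peak, since it uses the 48 h and 30 h levels. Of the 115 genes that rose, 112 had their highest level of the whole course at 48 h, as did 2204 of all 7577 genes (29.1%). For the risen genes the median levels were, in the order of the 7 times, 0.94, 1.49, 2.75, 6.53, 7.26, 8.71 and 45.6 CPM. At 30 h 29 of the 115 were already at least 2-fold above 24 h and 13 at least 2-fold below it. Against 24 h in place of 30 h, 97 of the 115 also passed the rule. Of the genes that fell, 61 of the 151 had their highest level at 0 h, 27 at 6 h, 29 at 18 h and 20 at 30 h. Their median level lay between 43.2 and 65.1 CPM from 0 to 30 h and was 7.87 CPM at 48 h. For 114 of the 151 the 48 h level was the lowest of the course, as it was for 1763 of all 7577 genes (23.3%), and 126 also passed the rule against 24 h. Both comparisons share the 48 h library.

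**Figure D5:**
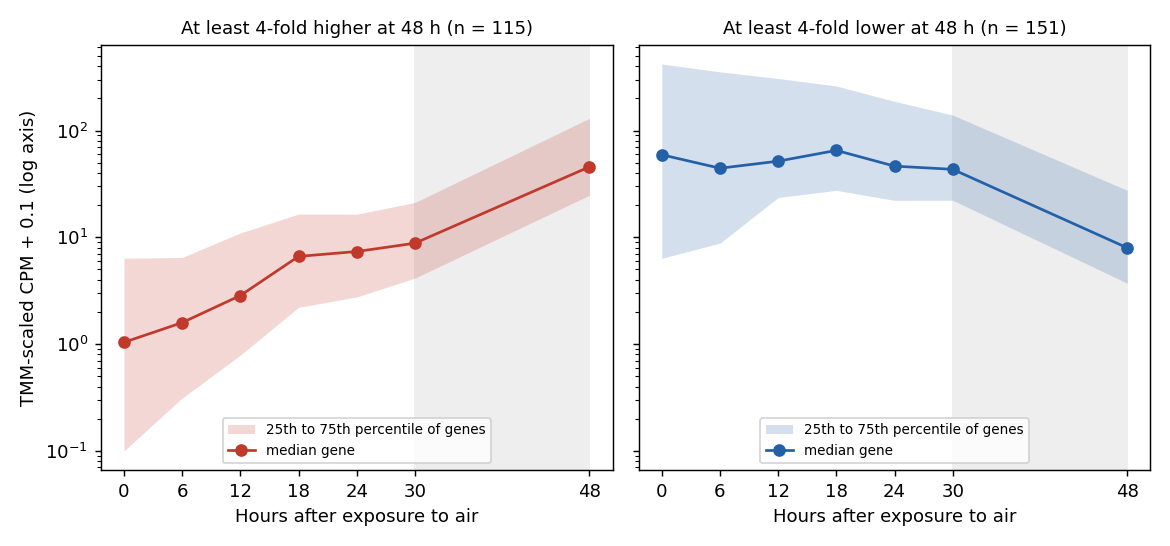
Median TMM-scaled CPM plus 0.1 (log axis) over all 7 times for the 115 genes that rose (left) and the 151 that fell (right), with the band from the 25th to the 75th percentile of genes; the grey zone marks 30 to 48 h. The median of the risen genes was 45.6 CPM at 48 h, against 8.71 CPM at 30 h, and that of the fallen genes 7.87 CPM at 48 h, against 43.2 CPM at 30 h.

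Of the genes that rose 109 have no symbol in the reference table, and of those that fell 144, so that they are given by identifier alone. AN7515 (contig 126, 307301 to 308113) had 474 CPM at 48 h, against 16.4 CPM at 30 h, 28.9-fold higher (25.2 to 33.3), from 5967 counts at 48 h and 213 at 30 h. AN3568 had the largest plain ratio of the 5 largest rises, 38.7 (20.2 to 85.5), from 338 counts at 48 h and 9 at 30 h. AN8106, AN3554 and AN8445 rose 24.5-fold (17.5 to 35.5), 19.8-fold (15.7 to 25.3) and 18.3-fold (15.4 to 21.9). The 5 largest falls were those of AN5397, AN5034, AN7397, AN7915 and AN3631, between 10.3-fold and 14.3-fold. AN5397 had 7.31 CPM at 48 h, against 93.6 CPM at 30 h, and 111.5 CPM at 24 h.

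Measured by CPM gained, AN5558 (contig 93) led, with 7439 CPM at 48 h, against 1468 CPM at 30 h, 5.07-fold higher (4.99 to 5.15). rodA, AN3983, AN8903 and AN4218 followed. AN3983 had 4029 CPM at 48 h, against 1389 CPM at 30 h, and AN8903 had 1485 CPM at 48 h, against 206 CPM at 30 h. The largest losses were those of AN4859, AN7895, AN4888, AN2582 and bgt2. AN7895 fell to 1246 CPM at 48 h, against 6268 CPM at 30 h, and AN4888 to 906 CPM at 48 h, against 4374 CPM at 30 h. By deposited RPKM, over genes of at least 300 bases, 4 of the 10 most abundant transcripts at 48 h were also among the 10 most abundant at 30 h.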

How the data were processed

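The analysis used the counts per gene in the table that the authors deposited, which are whole and unscaled. The RPKM values deposited by the authors divide by gene length and by the same library's total count, and they were used to rank transcripts and to recover gene length. Another deposited column per library, a signal of reads per base of the gene, was left aside. The submitters' processing notes name CASAVA, with no version or role. Not given in the sources used here are the aligner, genome build, annotation, strand setting and treatment of multiply placed reads. Whether reads shared by overlapping genes or near-identical copies were split, dropped or counted for each is therefore unknown, and contig positions are as deposited.

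TMM factors (edgeR 4.0.16, R 4.3.3) were computed over 7 libraries from 9703 genes with at least 1 CPM in 1 library and 15 counts in all. They were 1.39 at 48 h and 1.31 at 30 h. No test was possible with 1 library per time. Calls used a pseudocount of 0.5 CPM, 4-fold and 10 CPM. Where a library has no count, 3 counts stand as its limit. Intervals are exact Clopper-Pearson limits of a ratio of 2 counts (SciPy 1.17.1), checked on simulated data. DESeq2 1.42.0 gave alternative size factors.

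Symbols came from the ASM1142v1 reference table, which held 10455 of 10639 identifiers and 778 symbols, and matched 274 genes of 28 lists. Named genes were up to 15 of the largest rises and falls with a symbol, which came to all 6 rises and 7 falls that have one, and 5 each without, the 5 largest gains and losses of CPM, called list members and a fixed set of development genes; others named with values outside this rule were chosen after their values were seen, among them members of the lists under 4-fold and dppIV, sod1, sit1, sit2, utr2 and chiA1. Members and lists were chosen with earlier results of these data known. A planned search of promoters was not run here.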

Additional observations from a re-analysis of the deposited data

How the results depend on the processing

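No paired analysis was possible because each time has 1 library and the labels give no replicate numbers. With the 24 h library in place of the 30 h library, 288 genes rose and 306 fell at 4-fold. A fold threshold of 2 gave 558 and 773, and a threshold of 8 gave 20 and 15. Under a level filter of 50 CPM 56 rose and 71 fell, and at 2-fold 288 were higher and 410 lower. At 2-fold, 1217 genes were lower with at least 1 CPM and 1251 with no level filter, against 773. Requiring the nearer counting limit to pass 4-fold left 97 falls, and 82 rises. Scaled by total counts alone, which shifts log2 folds up by 0.090, 145 genes rose and 142 fell. With upper quartile factors the counts were 114 and 166, with DESeq2 size factors 115 and 149, with TMM from the 30 and 48 h libraries alone 122 and 172, and with pseudocounts of 0.1 and 2 CPM 124 and 162, and 80 and 103. None of the 27 called genes named outside the runs of neighbouring genes changed direction under these settings. Genes of the runs were not followed individually through them. Of the 27 called, pmcC was under 4-fold by total counts and with a pseudocount of 2 CPM, eglD with that pseudocount, and mfsA, tim9 and nudG against 24 h (log2 folds of -1.94, 0.64 and 0.58). The cause of the difference between the 24 h and 30 h comparisons was not tested. Depth limits low genes: at 48 h a count of 0 allows up to 0.239 CPM, and at 30 h up to 0.231 CPM.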

Other observations

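Position on the contigs was looked at for runs of at least 4 called genes of the same direction with at most 1 other gene between neighbours. There were 3 such runs, and 2 of them lie on contig 167. AN11191, AN11199, AN11198 and AN9218 (142828 to 155266) are adjacent and rose together, 12.0-fold, 8.89-fold, 5.84-fold and 4.70-fold. AN11191, a gene of 7377 bases, had 398 CPM at 48 h, against 33.1 CPM at 30 h, after 64.9, 59.3 and 78.3 CPM at 12, 18 and 24 h and 2.55 CPM at 6 h. Its 3 neighbours had the same dip at 30 h, with 19.3, 13.7 and 27.4 CPM there and 38.4, 26.95 and 42.4 CPM at 24 h. The 4 genes are 855 to 7377 bases long, and the cause of the dip was not tested. Against 24 h, AN11191 and AN11199 were 5.08-fold and 4.46-fold higher at 48 h. AN11198 and AN9218 were 2.97-fold and 3.04-fold higher, under 4-fold.

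On the same contig AN9179, AN9181, AN11190 and AN9183 (34374 to 45716) fell by 4.38-fold to 5.73-fold. Between them AN9180 had 64.3 CPM at 48 h, against 74.99 CPM at 30 h, and AN11195 had 25.9 CPM at 48 h, against 49.9 CPM at 30 h. AN9179 had stood at 1417 CPM at 6 h and was 30.1 CPM at 48 h. The nearer counting limits of AN9179, AN9181 and AN9183 were 3.92, 3.67 and 3.66, under 4-fold, and that of AN11190 was 4.44. The pigment gene ayg1 (6551 to 7548) and encD (19349 to 20565), which was 1.96-fold higher (1.70 to 2.26), lie on this contig as well. The third run was on contig 120 (73164 to 88867), where AN7229, AN7230, AN7232 and AN7233 fell by 5.11-fold to 9.84-fold while AN7231, in their midst, was 1.34-fold higher, with 158 CPM at 48 h, against 118 CPM at 30 h. The nearer counting limit of AN7233 was 3.75, under 4-fold, and those of the other called genes of this run were past 4-fold.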
